A study of Mus musculus with 6 samples.

Results

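Drug metabolism enzyme genes were examined in an ATAC-seq comparison of mouse liver with Dyrk1b overexpression and control liver. Their peaks were chosen by gene symbol in the deposited annotation: symbols that start with Cyp, Ugt, Sult, Fmo or Ces and a digit, or with Gst, plus Por, Ahr and Ephx1, with Cyp51 left out. This gave 145 of 22412 peaks, at 87 genes. Of these, 85 peaks at 55 genes belonged to phase I (cytochromes P450, flavin monooxygenases, carboxylesterases, Por and Ephx1). The other 60 peaks at 32 genes belonged to phase II (glutathione, UDP-glycosyl and sulfo transferases). Ahr, the receptor gene of the list, carried 0 peaks here. ATAC-seq uses a transposase that cuts open chromatin and tags the fragments, so the reads over a region measure how accessible it is. One group was Dyrk1b overexpression liver (titled Ad-Dyrk1b, Dyrk1b being a protein kinase) and the other control liver (titled Ad-EGFP, EGFP being a green fluorescent protein), with 3 samples each. The prefix Ad commonly stands for an adenoviral vector but is not spelled out in the labels, which give neither strain, age, dose nor time. They also do not state whether the replicates are different animals, and the p-values therefore rest on a spread among samples that may be technical.

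The liver clears drugs and other foreign compounds in steps. Phase I enzymes, above all the cytochromes P450, oxidise, reduce or hydrolyse a compound, and phase II enzymes attach a polar group such as glutathione, glucuronic acid or sulfate, after which transporters export the product. In hepatocytes many of these genes are switched on by the nuclear receptors PXR and CAR, by the aryl hydrocarbon receptor AHR and by the stress factor NRF2, on top of liver factors such as HNF1 and HNF4.

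Promoter sequences are shown for genes with a peak across the start site whose unadjusted p was under 0.05, as these are the promoters that a peak with a low p touched. RefSeq promoter sequences (build GRCm38.p6) matched 71 of the 87 genes by symbol. The 250 bases before the start farthest upstream were searched on both strands for the nuclear receptor half-site AGGTCA, the half-site AGTTCA found in PXR and CAR elements, the AHR core GCGTG, the NRF2 core TGACNNNGC, the HNF1 half-site GTTAAT, the HNF4 element CAAAGTCCA and the TATA box TATAAA. Capitals mark the matches, none of which overlapped another, and the genes stand with Cyp3a11 and Gstm1 at the head of their phases.
Cyp3a11: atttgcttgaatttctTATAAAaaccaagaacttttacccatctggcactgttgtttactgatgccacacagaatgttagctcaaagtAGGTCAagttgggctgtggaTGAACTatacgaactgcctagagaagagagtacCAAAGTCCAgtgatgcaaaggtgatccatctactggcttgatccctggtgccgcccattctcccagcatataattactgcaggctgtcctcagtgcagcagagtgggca
Cyp2j6: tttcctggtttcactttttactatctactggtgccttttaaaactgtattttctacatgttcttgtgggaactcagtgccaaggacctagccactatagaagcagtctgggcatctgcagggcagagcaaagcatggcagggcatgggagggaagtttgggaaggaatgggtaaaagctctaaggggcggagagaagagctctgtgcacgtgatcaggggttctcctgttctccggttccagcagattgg
Gstm1: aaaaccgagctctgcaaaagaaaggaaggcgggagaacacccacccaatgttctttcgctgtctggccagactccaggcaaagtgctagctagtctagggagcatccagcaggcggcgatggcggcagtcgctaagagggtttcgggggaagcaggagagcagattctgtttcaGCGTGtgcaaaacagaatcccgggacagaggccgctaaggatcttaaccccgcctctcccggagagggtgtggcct
Gstp3: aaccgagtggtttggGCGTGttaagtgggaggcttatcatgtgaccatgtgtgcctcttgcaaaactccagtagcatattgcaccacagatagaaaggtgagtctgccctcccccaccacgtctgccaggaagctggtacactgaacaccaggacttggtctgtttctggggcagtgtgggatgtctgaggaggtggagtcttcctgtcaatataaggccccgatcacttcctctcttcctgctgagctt
Gstt1: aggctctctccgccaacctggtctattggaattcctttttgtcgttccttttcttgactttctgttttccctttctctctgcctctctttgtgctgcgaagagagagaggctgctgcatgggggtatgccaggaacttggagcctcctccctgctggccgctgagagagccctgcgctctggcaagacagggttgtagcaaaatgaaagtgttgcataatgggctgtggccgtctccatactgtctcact
These windows lie at chr5:145879855-145880104 for Cyp3a11, chr4:96553652-96553901 for Cyp2j6, chr3:108017974-108018223 for Gstm1, chr19:4059448-4059697 for Gstp3 and chr10:75797732-75797981 for Gstt1, all on the minus strand of GRCm38.p6. The Cyp3a11 window held 1 match each to the nuclear receptor half-site, the PXR and CAR half-site, the HNF4 element and the TATA box, whose first bases lay 162, 142, 109 and 234 bases before the start. The Gstm1 and Gstp3 windows held 1 GCGTG each, at 76 and 235 bases, and those of Cyp2j6 and Gstt1 held 0 matches. Of the further genes that met the rule, Gstcd had 1 GCGTG and Sult1a1 had 1 GTTAAT. The nuclear receptor half-site was in 22.5% of the 71 drug metabolism promoters and 13.8% of all 27025 RefSeq promoters of the same length, and the TATA box in 21.1% and 13.0%. The PXR and CAR half-site was in 12.7% and 11.9%, and the HNF1 half-site in 11.3% and 6.54%. The HNF4 element was in 2.82% (2 promoters, that of Cyp3a11 included) and 0.377%. The AHR core was in 22.5% and 28.3%, and the NRF2 core in 2.82% (2 promoters) and 10.1%. From the deposited start the Cyp3a11 peak reached 190 bases upstream, and the Gstm1 and Gstp3 peaks reached 330 and 381 bases. The matches are counted from the RefSeq start, which can differ, so whether a peak covers a match was not determined. A match describes the letters only and does not show a bound site.

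Libraries of the Dyrk1b group held 768418 to 1267934 reads in peaks and control libraries 762633 to 855787, of which the drug metabolism peaks took 0.616% to 0.665% in Dyrk1b libraries and 0.627% to 0.731% in controls. Reads in peaks were a small share of the library totals behind the deposited RPKM values. This share was 1.67% to 2.62% in Dyrk1b libraries and 1.89% to 2.22% in controls. The median drug metabolism peak had 28 to 48 reads in Dyrk1b libraries and 28 to 34 in controls, so single peaks rest on few reads. Levels are given in CPM, reads scaled to a common number of reads in peaks after TMM normalization and not divided by peak length, and log2 changes as Dyrk1b over control with their standard error (SE). The tissue label was checked on 10 hepatocyte marker genes fixed for this purpose, of which 6 (Alb, Apoa1, Apob, Fga, Fgb and Tdo2) carried a peak and Ttr, Serpina1a, Tat and Cps1 did not. Their summed level was 271 to 301 CPM in Dyrk1b libraries and 266 to 376 CPM in controls, with 5 of 7 peaks negative (median log2 change -0.25). Of 33 marker genes of other liver cells 10 carried a peak, with no cholangiocyte marker among them. Their sum was 530 to 536 CPM in Dyrk1b libraries and 480 to 524 CPM in controls, so the groups did not overlap, with 10 of 13 peaks positive (median 0.17). The part of these shifts in the results that follow was not tested, and fewer cells of a type and less open chromatin per cell cannot be told apart in bulk liver.

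No drug metabolism peak passed the threshold between Dyrk1b and control livers. By edgeR's quasi-likelihood test 0 of 142 tested had a Benjamini-Hochberg adjusted p under 0.05 over all peaks, where 0.0317% of the 22051 peaks tested did. The lowest adjusted p, 0.166, was at an intronic peak of the Ugt1a locus. DESeq2 (0.0862% of all peaks called, with no adjusted p for 104 of the 145) and limma-trend (0.00907% of all peaks called) also called 0. At an unadjusted p under 0.05 there were 26 by each of the 3 tools. By edgeR 10 of these were higher, or 7.04% against 6.44% of all peaks, and 16 lower, or 11.3% against 7.72% of all peaks. The groups did not overlap at 13 peaks that were higher in Dyrk1b livers, where 9.53% of all peaks did so, and at 18 that were lower, where 9.97% did, together 21.8% against 19.5% of all peaks. In the authors' deposited table the lowest FDR of these peaks was 0.299, against 0.0652 over all peaks, and 15 had a p under 0.05, or 10.3% against 9.37% of all peaks.

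Phase I and phase II peaks had nearly the same median. Of 83 phase I peaks tested, 46 had a negative log2 change, with a median of -0.07 and a range of -1.30 to 1.62. Of 59 phase II peaks, 33 were negative, with a median of -0.07 and a range of -0.94 to 1.48. The median of all peaks was 0.0047, and 49.5% of them were negative. An unadjusted p under 0.05 was reached by 11 phase I peaks, 4 higher and 7 lower, or 13.3%, which is near the 14.2% of all peaks. Among phase II peaks 15 reached it, 6 higher and 9 lower, or 25.4%, and 11 of the 15 were Gst peaks. By family the shares were 35.5% for Gst, 13.3% for Ugt and 15.4% for Sult. Without Dyrk1b library 1 the phase II count was 8, where 13.2% of all peaks reached that p. No difference between the phases was tested. With the RPKM library totals as scaling, which moved the median of all peaks to 0.17, the medians were 0.09 for phase I and 0.08 for phase II, and the counts were 5, or 6.02%, and 7, or 11.9%, against 8.69% of all peaks.

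The sign of a change went with the level of the peak, in these genes as in all others. All tested peaks were cut into 4 equal bins by mean CPM. In the lowest bin the median log2 change was 0.33 for 21 phase I peaks, 0.35 for 14 phase II peaks and 0.32 for all peaks. In the second bin the medians were -0.02, 0.21 and 0.09, and in the third -0.13, -0.17 and -0.04, in the same order. In the highest bin they were -0.18 for 21 phase I peaks, -0.19 for 16 phase II peaks and -0.15 for all peaks. Peaks near a start site had a higher CPM than others, with a median of 46.6 CPM against 30.1 CPM for the distal peaks of the whole table. They were also wider (median 560 against 413 bases), and CPM is not divided by length. The bins likewise differed in width, with medians of 317 bases in the lowest and 787 bases in the highest for all peaks. Of the drug metabolism peaks, 68 lay at a start site (class promoter, or within 3 kb of the start and not classed as downstream), and 40 of them were negative, or 58.8% against 56.9% of all start-site peaks. Of the 74 distal ones 39 were negative, or 52.7% against 43.9% of all distal peaks. An unadjusted p under 0.05 was reached at start sites by 2 higher and 8 lower peaks, where the shares of all start-site peaks were 4.67% and 8.85%, and at distal sites by 8 higher and 8 lower peaks, where the shares were 7.8% and 6.85%. After loess normalization, which removes a trend with level, 76 of the 142 peaks were negative in place of 79.

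**Figure D1:**
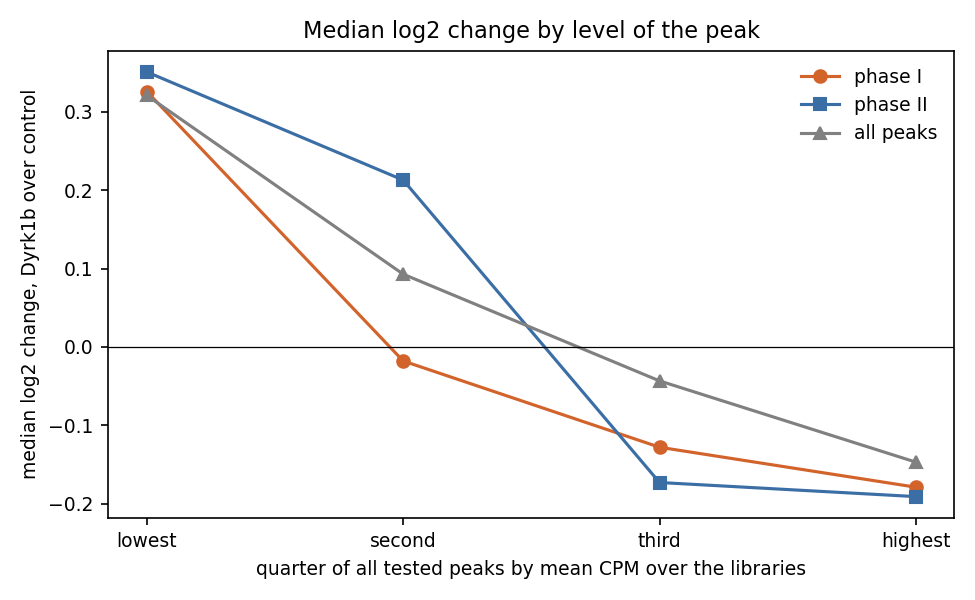
Median log2 change of Dyrk1b over control (y axis) in 4 equal bins of all tested peaks by mean CPM (x axis), for phase I peaks (orange circles), phase II peaks (blue squares) and all peaks (grey triangles). All lines run from 0.32 to 0.35 in the lowest bin to -0.15 to -0.19 in the highest.

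Cyp3a11, the main CYP3A enzyme of mouse liver and a classical PXR target that oxidises many drugs, had lower values at its start site and higher ones inside the gene. The start-site peak (chr5:145816562-145816964 as deposited, class 5' UTR, 11 bases from the start) held 27.9, 13.2 and 45.3 CPM in Dyrk1b libraries 1, 2 and 3, against 68.0, 52.2 and 41.7 CPM in control libraries 1, 2 and 3. Dyrk1b library 3 lay above control library 3, so the groups overlapped, and the other Dyrk1b libraries lay below every control. The means were 28.8 ± 16.1 CPM in Dyrk1b livers and 53.97 ± 13.3 CPM in controls (SD, n = 3 each). The log2 change was -0.86 ± 0.31 (SE), with an adjusted p of 0.224 by edgeR. Without Dyrk1b library 3 it was -1.42, and without Dyrk1b library 2 it was -0.52. The log2 ratio in the authors' deposited table was -0.716 (FDR 0.582).

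The other Cyp3a11 peak, in intron 10 of 12 (chr5:145798424-145798713), had 23, 10 and 27 reads in Dyrk1b libraries and 9, 3 and 3 reads in controls. In CPM these were 30.5, 11.0 and 20.7 with Dyrk1b, against 10.6, 3.64 and 4.03 in controls. Every Dyrk1b library lay above every control. This peak was removed by the filter on low counts, and with no filter its log2 change was 1.72 ± 0.63, with an adjusted p of 0.219. The 2 peaks of the gene thus had opposite signs, and neither passed the threshold. Cyp3a11 is one of a family of near-identical genes, and the sources used here do not say how reads matching several of them were placed.

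**Figure D2:**
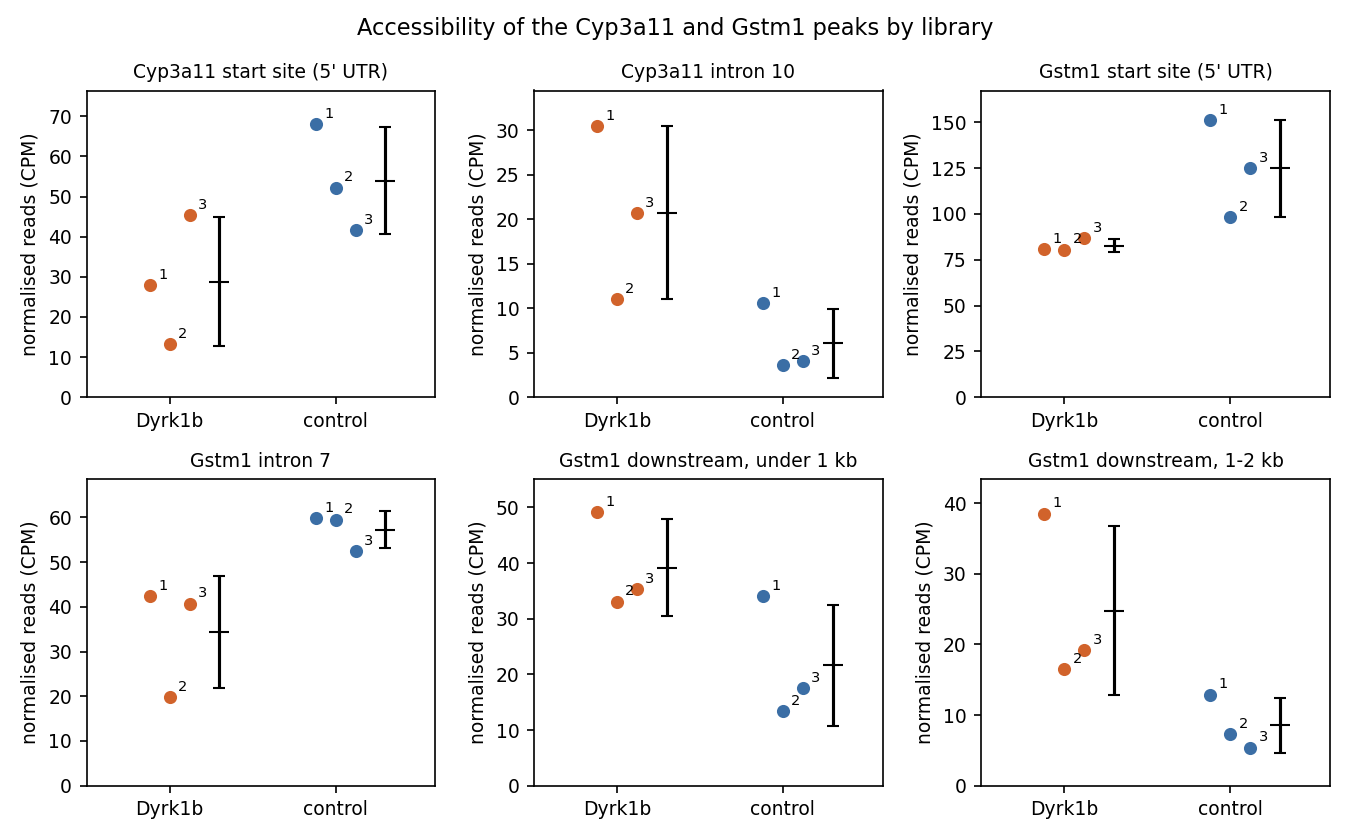
Normalised reads in CPM (y axis, from 0) of the 2 Cyp3a11 and 4 Gstm1 peaks in the 3 Dyrk1b (orange) and 3 control libraries (blue), numbered by replicate, with the mean and SD in black. The start-site and last-intron peaks are lower and the Cyp3a11 intron 10 and Gstm1 downstream peaks higher with Dyrk1b, with overlap at the Cyp3a11 start site and at the downstream peak under 1 kb.

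In all, P450 families 1 to 3, which hold most drug-oxidising enzymes, had 28 tested peaks at 20 genes, the Cyp3a11 start site included. They were divided evenly, with 14 positive and 14 negative (median 0.00311). Cyp2j6, an epoxygenase of fatty acids and drugs, had more reads at its start (chr4:96441551-96442069, class 5' UTR). It held 55.7, 44.1 and 39.9 CPM in Dyrk1b libraries, against 29.3, 30.4 and 22.9 CPM in controls, with no overlap and a log2 change of 0.74 ± 0.31 (adjusted p = 0.281 by edgeR). A weak peak classed as downstream of Cyp2s1 (chr7:25498898-25499122) had 20, 17 and 22 reads in Dyrk1b libraries and 6, 9 and 1 in controls. Its log2 change of 1.62 ± 0.61 (adjusted p = 0.238) was the highest of all phase I peaks tested. The lowest was that of Cyp2j13 in intron 3 (-1.30 ± 0.64, adjusted p = 0.347), from 5, 7 and 7 reads with Dyrk1b against 13, 10 and 16 in controls. Cyp2j13 lies outside the naming rule and was named after its value was seen. The peak of these families with the highest mean CPM was the Cyp3a13 promoter (chr5:137919495-137920864), which is 1370 bases wide. It held 100.3 ± 16.2 CPM in Dyrk1b livers and 117 ± 22.7 CPM in controls, with a log2 change of -0.23 ± 0.21.

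Cyp4 genes encode hydroxylases of fatty acids and eicosanoids. Of their 12 tested peaks 7 were positive (median 0.05). A peak in the last intron of Cyp4f13 (chr17:33143996-33144309) held 31.9, 27.6 and 36.9 CPM in Dyrk1b libraries, against 19.9, 10.9 and 12.1 CPM in controls. The groups were apart, and the log2 change was 1.16 ± 0.40 (adjusted p = 0.211). The start-site peak of the same gene had -0.03 ± 0.26. Cyp4f37 (0.59 ± 0.43), Cyp4f14 at its promoter (-0.35 ± 0.27) and Cyp4v3 (0.03 ± 0.26) had overlapping groups. Cyp4f37 ran from 0.22 without control library 3 to 1.44 without control library 1, and the Cyp4f14 promoter had -0.05 without control library 1.

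The remaining P450 genes act mainly on steroids, bile acids, retinoids and vitamin D, and 7 of their 13 peaks were positive. Cyp17a1, the steroid 17-hydroxylase and lyase, had an intron 6 peak (chr19:46656590-46657259) with 74.3, 61.8 and 59.9 CPM in Dyrk1b libraries, against 104, 68.0 and 130.4 CPM in controls. Dyrk1b library 1 lay above control library 2, and the log2 change was -0.63 ± 0.23 (adjusted p = 0.227), or -0.41 without control library 3. Cyp26b1, which degrades retinoic acid, had an intron 1 peak (chr6:84567278-84567674) with 59.7, 29.8 and 36.1 CPM in Dyrk1b libraries, against 23.4, 21.9 and 18.8 CPM in controls. All Dyrk1b libraries were higher there, with a log2 change of 0.94 ± 0.35 (adjusted p = 0.227). Cyp20a1, an orphan P450, had overlapping groups at its start (log2 change 0.35 ± 0.22). Both peaks with a low p lay inside introns, not at a start site.

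Flavin monooxygenases, which oxidise nitrogen and sulfur atoms of drugs and dietary amines, had 4 of 6 peaks negative (median -0.44). In intron 2 of Fmo2 (chr1:162719400-162720170) there were 54.4, 24.3 and 43.8 CPM in Dyrk1b libraries, against 84.4, 49.8 and 59.1 CPM in controls. Dyrk1b library 1 lay above control library 2, so the groups overlapped, and the log2 change was -0.67 ± 0.27 (adjusted p = 0.274 by edgeR), or -0.41 without Dyrk1b library 2 and -0.42 without control library 1. Fmo1 in intron 2 had -0.55 ± 0.33 with no overlap, and in intron 1 it had -0.33 ± 0.26 with overlap. Fmo5 and Fmo6, which lie outside the naming rule, had 0.18 ± 0.29 and 0.35 ± 0.34.

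Carboxylesterases, which split ester and amide drugs, had 10 of 15 peaks negative (median -0.14). The peak in intron 1 of Ces1e, 362 bases from the start (chr8:93955744-93956027), held 19.9, 11.0 and 6.91 CPM in Dyrk1b libraries, against 30.5, 23.1 and 26.9 CPM in controls. The groups were apart, with a log2 change of -1.15 ± 0.47 (adjusted p = 0.276). Intron 12 of Ces1b (-0.98 ± 0.52) was likewise below every control, and intron 2 of Ces4a (-0.59 ± 0.27, or -0.96 without Dyrk1b library 3) overlapped. The promoter of the same Ces1b was higher in every Dyrk1b library, at 0.61 ± 0.39. Ces2a, whose promoter peak of 1039 bases had the highest mean CPM of the family, had -0.16 ± 0.22 there.

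Por and Ephx1 serve the whole system: the reductase encoded by Por passes electrons to all microsomal P450 enzymes, and the microsomal epoxide hydrolase encoded by Ephx1 opens the epoxides they make. Por had 5 intronic peaks at 12853 to 56836 bases from the annotated start, of which 4 were negative. In the peak 25397 bases from the start (chr5:135723959-135724609) there were 78.3, 77.2 and 59.9 CPM in Dyrk1b libraries, against 98.5, 88.7 and 96.8 CPM in controls. This peak had no overlap and a log2 change of -0.41 ± 0.22 (adjusted p = 0.389), and the next one, at 37975 bases, had -0.33 ± 0.23 and no overlap. The peak at 12853 bases had -0.38 ± 0.22, that at 18815 bases -0.08 ± 0.20 and that at 56836 bases 0.22 ± 0.24, each with overlap. The sign at 18815 bases turned under loess normalization (0.15), the RPKM library totals (0.07) and without Dyrk1b library 2 (0.0012). Of the 4 intronic Ephx1 peaks 3 were negative, between -0.35 ± 0.25 and -0.11 ± 0.24. The peak in intron 2, at 33.6 ± 1.56 CPM in Dyrk1b livers and 29.0 ± 1.98 CPM in controls, had a log2 change of 0.21 ± 0.33 although its groups did not overlap.

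**Figure D3:**
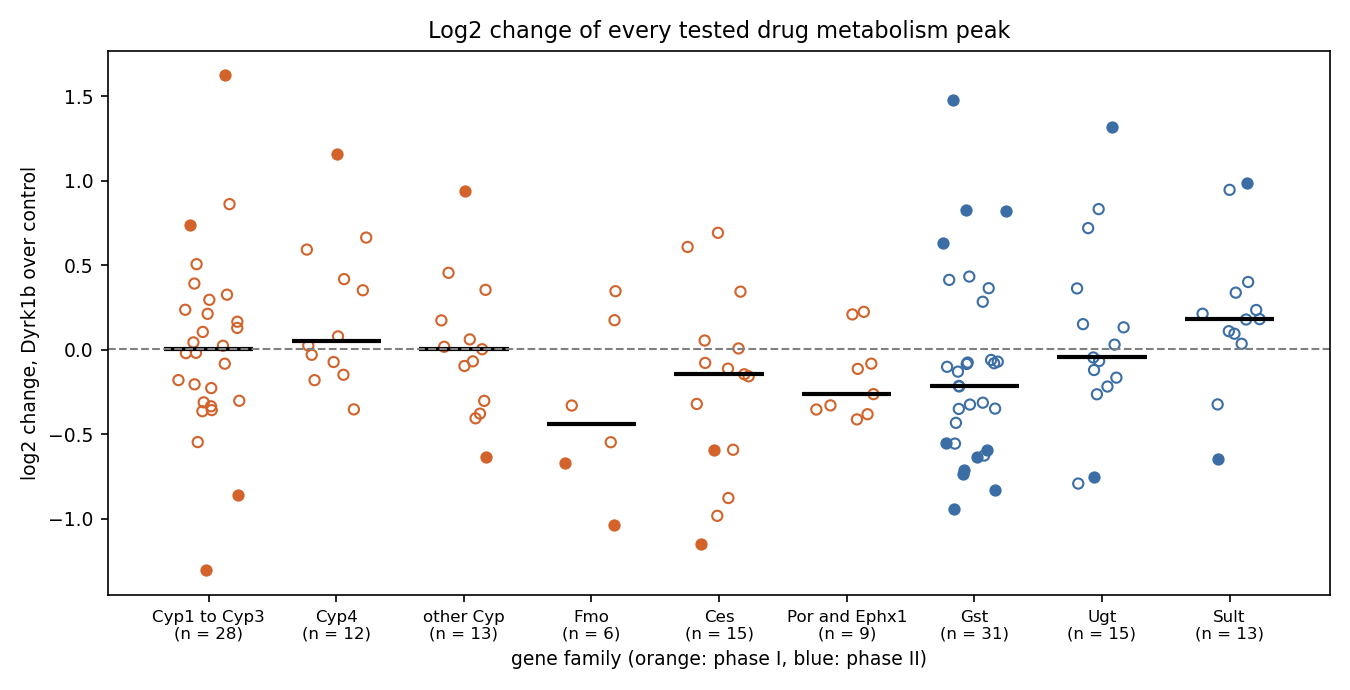
Log2 change of Dyrk1b over control (y axis) of each tested peak by gene family (x axis), phase I in orange and phase II in blue, filled where the unadjusted p was under 0.05, with the family median as a bar and the median of all peaks (0.0047) as a dashed line. Medians run from -0.44 for Fmo to 0.18 for Sult, and Gst holds 11 of the 26 filled points.

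Gstm1, a mu-class glutathione S-transferase abundant in hepatocytes, had 4 peaks with opposite signs at its opposite ends. The peak over the start site (chr3:107924680-107925619 as deposited, class 5' UTR, 140 bases from the start) held 81.0, 80.5 and 86.8 CPM in Dyrk1b libraries, against 151 CPM, 98.4 CPM and 125 CPM in controls. All Dyrk1b libraries lay below all controls, and the Dyrk1b libraries differed little among themselves (82.7 ± 3.50 CPM) while the controls spread more (125 ± 26.4 CPM; SD, n = 3 each). The log2 change was -0.59 ± 0.21, with an adjusted p of 0.223 by edgeR. It was -0.43 without control library 1 and -0.74 without control library 2. The log2 ratio in the authors' deposited table was -0.44 (FDR 0.626).

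The peak in intron 7 of 7 of Gstm1 (chr3:107920697-107921236) held 42.5, 19.9 and 40.7 CPM in Dyrk1b libraries, against 59.8, 59.5 and 52.4 CPM in controls. It too had no overlap, with a log2 change of -0.73 ± 0.28 (adjusted p = 0.253), and -0.46 without Dyrk1b library 2. Beyond the gene's end the signs turned. The peak within 1 kb downstream (chr3:107918900-107919249) held 49.1, 33.1 and 35.3 CPM in Dyrk1b libraries, against 34.0, 13.4 and 17.5 CPM in controls, and overlapped by 1 library. Its log2 change was 0.83 ± 0.35 (adjusted p = 0.289), and 1.33 without control library 1. The peak 1 to 2 kb downstream (chr3:107917631-107917864) had 29, 15 and 25 reads in Dyrk1b libraries, against 11, 6 and 4 in controls, with no overlap. At 1.48 ± 0.54 (adjusted p = 0.227) it had the highest log2 change of all phase II peaks tested. The peaks with negative values averaged 34.3 and 82.7 CPM in Dyrk1b livers and 57.2 and 125 CPM in controls. Those with positive values averaged 24.7 and 39.2 CPM in Dyrk1b livers and 8.52 and 21.6 CPM in controls, so they were the weaker ones in controls, while the orders mixed in Dyrk1b livers.

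**Figure D4:**
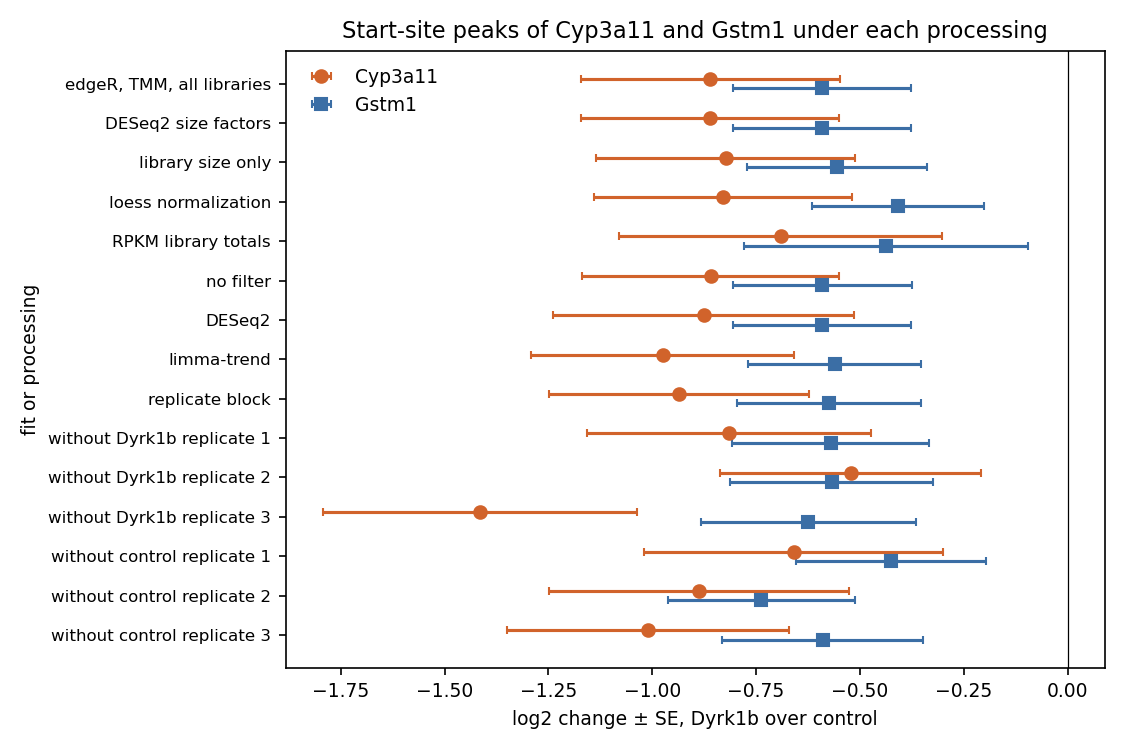
Log2 change ± SE of Dyrk1b over control (x axis) of the start-site peaks of Cyp3a11 (orange circles) and Gstm1 (blue squares) under each fit and with each library left out (y axis). Every value is negative, from -1.42 to -0.52 for Cyp3a11 and from -0.74 to -0.41 for Gstm1.

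Glutathione S-transferases as a family had 23 of 31 tested peaks negative, or 74.2% against 49.5% of all peaks, with a median of -0.21. Their median level was 45.8 CPM against 35.9 CPM for all peaks, and 19 of them lay at a start site. Of these 78.9% were negative, against 56.9% of all start-site peaks. Of the distal ones 66.7% were negative, against 43.9% of all distal peaks. An unadjusted p under 0.05 was reached by 11 of the 31, or 35.5% against 14.2% of all peaks, 4 of them higher and 7 lower. The family was singled out after its values were seen, and adjacent peaks of its gene clusters are not independent of each other. The count of 11 was 5 without Dyrk1b library 1 and 7 without control library 3, where 13.2% and 12% of all peaks reached that p. With scaling to the RPKM library totals it was 4, all higher, or 12.9% against 8.69% of all peaks. The number of negative peaks was 18 after loess normalization, or 58.1% against 48% of all peaks. With the RPKM library totals it was 16, or 51.6% against 34.8% of all peaks. The median stayed negative in these scalings, at -0.18 and -0.07, where the median of all peaks was 0.02 and 0.17.

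The pi-class gene Gstp3 had the lowest p of the family, at both of its promoter peaks. The one at the start (chr19:4109387-4109950) held 38.5, 48.5 and 57.6 CPM in Dyrk1b libraries, against 78.6, 80.2 and 82.0 CPM in controls. No Dyrk1b library reached the controls, and the log2 change was -0.71 ± 0.24 (adjusted p = 0.196). The one 1383 bases upstream had -0.63 ± 0.22 (adjusted p = 0.198) and also no overlap. The peaks nearest the starts of its neighbours Gstp1 and Gstp2, which encode near-identical enzymes, had -0.07 ± 0.28 and -0.08 ± 0.26, with overlapping groups. Gsta4, an alpha-class enzyme that detoxifies lipid peroxidation products, had a peak classed as 5' UTR (chr9:78098946-78099440). The peak was counted as distal by its deposited distance of 9137 bases, taken from the gene start listed with it. Whether another transcript of the gene starts nearer was not checked. It held 13.3, 23.2 and 36.1 CPM in Dyrk1b libraries, against 52.8, 45.0 and 36.3 CPM in controls, which did not overlap (log2 change -0.83 ± 0.33, adjusted p = 0.259, and -1.27 without Dyrk1b library 3).

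The mu-class cluster around Gstm1 on chromosome 3 was mixed. Start-site values were -0.31 ± 0.26 at Gstm7, -0.22 ± 0.29 at Gstm3 and -0.08 ± 0.27 at Gstm2 across the start, and 0.43 ± 0.25 at Gstm4 and 0.41 ± 0.33 at Gstm5. Gstm4 was higher in every Dyrk1b library, with 70.9 ± 5.32 CPM in Dyrk1b livers and 52.1 ± 10.8 CPM in controls. In intron 5 of Gstm2 a weak peak had -0.94 ± 0.45, and downstream of Gstm3 a peak had 0.63 ± 0.28. The theta-class gene Gstt1 had its promoter peak (chr10:75634200-75634649) at 47.8, 34.2 and 29.2 CPM in Dyrk1b libraries, against 19.9, 24.3 and 17.5 CPM in controls. These groups were apart, with a log2 change of 0.82 ± 0.36 (adjusted p = 0.297), and its intron 3 peak had the opposite sign at -0.55 ± 0.31. Gstcd, a gene with a transferase-like domain, had -0.55 ± 0.24 at its start. Gstp1, Gstp2, the other mu-class genes, Gstt1 and Gstcd lie outside the naming rule and were named after their values were seen.

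**Figure D5:**
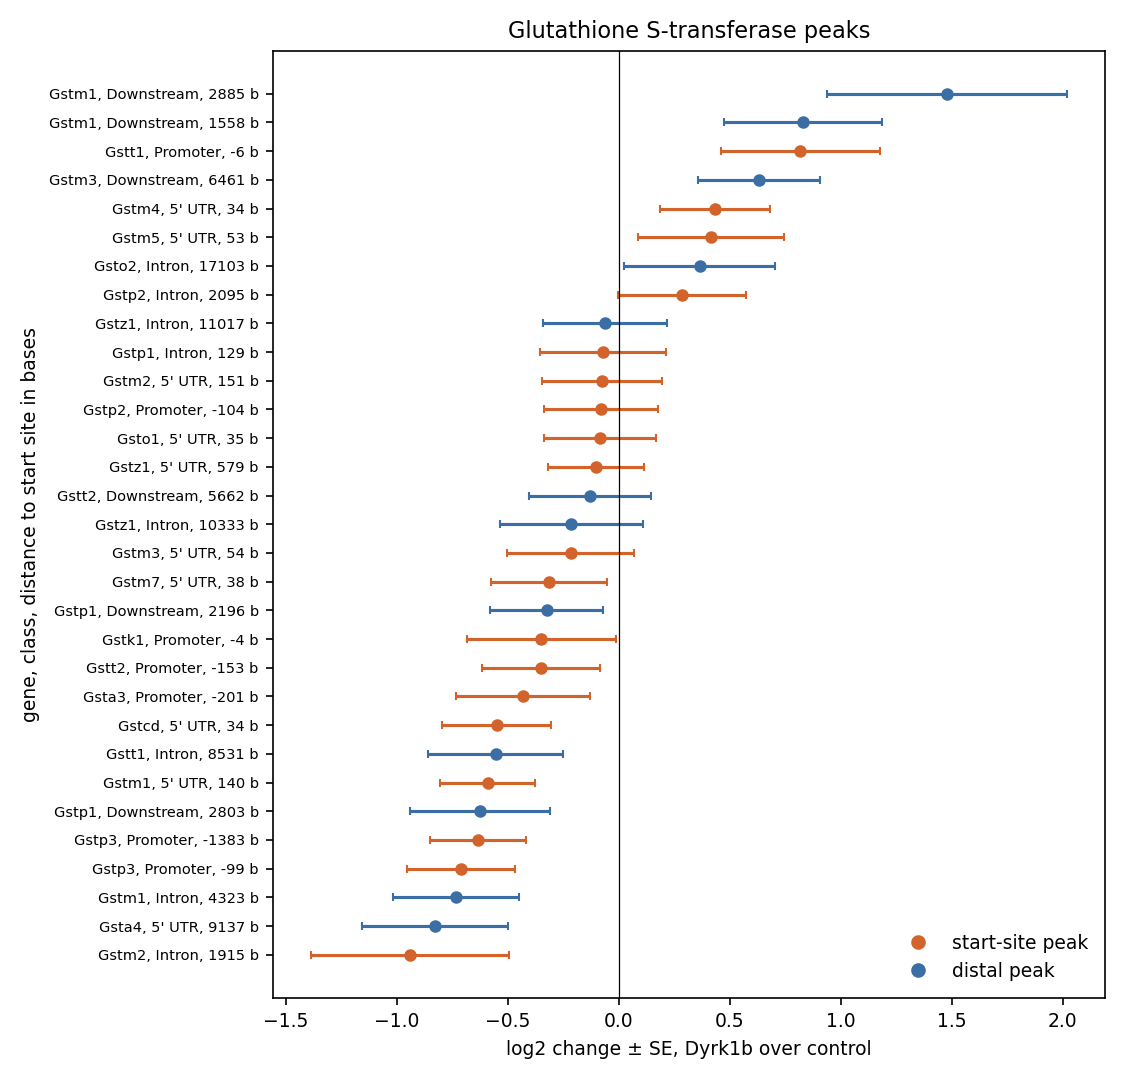
Log2 change ± SE of Dyrk1b over control (x axis) of the 31 tested glutathione S-transferase peaks (y axis, ordered by value, with class and distance to the start site), start-site peaks in orange and distal peaks in blue. Gstm1 holds the highest values at its downstream peaks and negative values at its start-site and intron peaks.

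UDP-glucuronosyltransferases of the Ugt1 and Ugt2 families attach glucuronic acid to drugs and bilirubin. Of the 15 tested peaks with a Ugt symbol, which also take in Ugt3a and Ugt8a genes, 8 were negative (median -0.05). The Ugt1a enzymes share their last exons and have alternative first exons, so intronic peaks of the locus, named Ugt1a10 in the deposited annotation, cannot be given to 1 enzyme. The distances deposited for the intronic peaks given here do not count from the gene start listed with them (87983110). One such peak (chr1:88123409-88123728, deposited distance 61037 bases) held 42.5, 25.4 and 35.3 CPM in Dyrk1b libraries, against 9.38, 17.0 and 14.8 CPM in controls. It had no overlap, a log2 change of 1.32 ± 0.40 and the lowest p of all drug metabolism peaks (unadjusted p = 0.00181, adjusted p = 0.166 by edgeR). The drug metabolism peak with the highest mean CPM lay in the same intron (chr1:88140255-88142025, deposited distance 78609 bases). It held 443.0 ± 87.0 CPM in Dyrk1b livers and 514 ± 9.97 CPM in controls, with a log2 change of -0.22 ± 0.23. In intron 2 of Ugt3a1 (chr15:9300220-9301322) there were 66.3, 20.9 and 38.4 CPM in Dyrk1b libraries, against 68.0, 60.7 and 79.3 CPM in controls, an overlap by Dyrk1b library 1 (-0.75 ± 0.28, adjusted p = 0.227). Its log2 change was -1.18 without Dyrk1b library 1 and -0.44 without Dyrk1b library 2. A weak peak downstream of Ugt2b36 had 0.83 ± 0.55 and groups apart.

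Sulfotransferases had 11 of 13 tested peaks positive (median 0.18), 6 of the 13 from Sult2b1 alone. Sult2b1 sulfates cholesterol and other sterols, and all 6 of its peaks were positive, from 0.04 ± 0.30 to 0.99 ± 0.38. The peak at 0.99, in intron 5 (chr7:45381346-45381801), held 45.1, 32.0 and 33.0 CPM in Dyrk1b libraries, against 22.3, 6.07 and 26.9 CPM in controls, with no overlap (adjusted p = 0.254, and 0.57 on the log2 scale without control library 2). Sult1a1, the phenol sulfotransferase, went the other way at its start site (chr7:126275392-126275755). It held 26.5, 34.2 and 30.7 CPM in Dyrk1b libraries, against 57.5, 49.8 and 36.3 CPM in controls, apart in all libraries (-0.65 ± 0.30, adjusted p = 0.319). Sult4a1 in intron 1 (0.95 ± 0.50) and Sult2a8 at its start (0.18 ± 0.26) had overlapping groups. Negative peaks made up 15.4% of the family, against 49.5% of all peaks. The positive count stood at 11 with the RPKM library totals, where 34.8% of all peaks were negative, and at 9 after loess normalization, where 48% were. Sulfotransferase peaks were weak, with a median of 27.6 CPM against 35.9 CPM for all peaks. Weak peaks of the whole set leaned positive too, with 32.2% negative in the lowest bin by mean CPM.

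Other genes of drug handling that the symbol rule does not take were listed by role. Of 59 such genes 46 carried a peak, and 66 of their 98 tested peaks were negative (median -0.23), or 67.3% against 49.5% of all peaks. By edgeR 0 passed over all peaks, and at an unadjusted p under 0.05 there were 4 higher, or 4.08% against 6.44% of all peaks, and 16 lower, or 16.3% against 7.72%. Among other phase I enzymes 23 of 28 peaks, or 82.1%, were negative (median -0.36). Among other phase II enzymes and cofactor genes 21 of 25, or 84%, were negative (median -0.38). Other scalings were not applied to this list. Receptors and factors had 9 of 13 negative, electron donor and haem genes 3 of 5, and transporters 10 of 27 (median 0.20).

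The lowest p of this list was at the promoter of Mgst1, a membrane-bound glutathione transferase (chr6:138116759-138117571). It held 45.1, 29.8 and 29.9 CPM in Dyrk1b libraries, against 87.9, 74.1 and 47.0 CPM in controls, with no overlap and a log2 change of -1.03 ± 0.27 (adjusted p = 0.112). The aldehyde dehydrogenase gene Aldh2 at its start (-0.90 ± 0.26, adjusted p = 0.140) and the alcohol dehydrogenase gene Adh1 in a distal intronic peak (-0.88 ± 0.26, adjusted p = 0.1504) were also lower in every Dyrk1b library. Slc47a1, an exporter of organic cations, had the opposite sign at its promoter (chr11:61268774-61269874), with 75.6, 124 and 85.2 CPM in Dyrk1b libraries, against 63.3, 31.6 and 67.2 CPM in controls. Every Dyrk1b library was higher there, with a log2 change of 0.81 ± 0.25 (adjusted p = 0.160).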

How the data were processed

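ATAC-seq was measured in 6 mouse liver samples, 3 titled Ad-Dyrk1b and 3 titled Ad-EGFP. The authors deposited read counts per merged peak and library (whole numbers, lowest value 1), RPKM values, their group means, a log2 ratio, and a p-value and FDR per peak, per the file headers. The deposited RPKM values are reads divided by peak length (end minus start) and by a library total of 38.1 M to 48.3 M reads. Bowtie2, ChIPseeker, DiffBind and mm10 are listed in the submitters' processing notes. Of 87 drug metabolism genes, however, 2 lay within 2 kb of their GRCm38 position, so peak coordinates are those of the deposited table with no build assigned, and promoters carry their own build. Not given in the sources used here are the peak caller, duplicate handling and any transposase shift. Peak names run to 30387, more than the peaks used here.

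The test on counts was that of edgeR 4.0.16 under R 4.3.3 (TMM, filterByExpr, which removed 361 peaks, 3 of them drug metabolism peaks, and the quasi-likelihood test with no covariate), with Benjamini-Hochberg adjustment over all 22051 peaks. SE is the log2 change divided by the square root of the F statistic. DESeq2 1.42.0, limma 3.58.1 (prior count 2), other normalizations, no filter, a replicate block and leaving out each library were alternatives. The fit was checked on simulated counts. No libraries were duplicates: each of 15 pairs exceeded counting noise (chi-square per degree of freedom 2.19 to 4.39). The members and lists were chosen with earlier results of these data known. Named genes were all peaks of Cyp3a11, Gstm1, Ahr, Por and Ephx1, and the 4 lowest p of the list of other genes. In each family the 3 genes with the lowest p and the peak with the highest mean CPM were also named. One gene that this rule names is not reported here. Intervals for single libraries were not computed, and read numbers limit the precision of weak peaks.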

Additional observations from a re-analysis of the deposited data

How the results depend on the processing

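The count of drug metabolism peaks called stayed at 0, and the start-site peaks of Cyp3a11 and Gstm1 kept a negative sign and no adjusted p under 0.05, under all 14 alternatives. DESeq2 gave the Cyp3a11 peak no adjusted p. Adjusted p otherwise ran from 0.185 to 0.612 for Cyp3a11 and from 0.175 to 0.727 for Gstm1. Over all peaks 7 were called, against 4 by library size only, 1 with the RPKM library totals, 19 with DESeq2, 2 with limma-trend, 7 with the replicate block, and 0 to 10 with a library left out. With the RPKM library totals 5 phase I, 7 phase II and 4 glutathione S-transferase peaks had an unadjusted p under 0.05, and the medians were 0.08546 for phase I and 0.07644 for phase II. The cause was not tested. With a library left out these counts were 8 to 13, 8 to 14 and 5 to 11, where 10.9% to 14.5% of all peaks reached that p. The medians were then -0.1125 to 0.01791 for phase I and -0.204 to 0.0327 for phase II, so neither sign is settled. Loess normalization put the phase II median at -0.0126. Reversed signs were at weakly changed peaks: Ces2a with loess (0.0157); Ephx1 at 7642 bases with loess (0.0272) and without Dyrk1b library 2 (0.02999) or 3 (0.0613); the Por peak at 18815 bases with loess (0.154), the RPKM totals (0.0699) and without Dyrk1b library 2 (0.00119); Cyp4v3 with limma-trend (-0.0101), the replicate block (-0.00161) and without Dyrk1b library 2 (-0.2797) or control library 2 (-0.0312); and Sult2a8 without Dyrk1b library 3 (-0.112). With a library left out these ran from -0.2797 to 0.251 for Cyp4v3, -0.4428 to 0.0613 for Ephx1, -0.1452 to 0.00119 for Por and -0.112 to 0.3583 for Sult2a8. Samples with the same number did not deviate together (correlations of -0.0144 to 0.0073). Single peaks rest on few reads and the labels do not say what the numbers mark, so whether the samples are paired remains unknown. The replicate block left 0 drug metabolism peaks called. The smallest detectable change was not computed.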
